A study of Mus musculus with 4 samples.

Results

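Neutrophil granule proteins were followed here through the transcripts of 9 genes, Ngp, Camp, Ltf, Lcn2, Cd177, Chil1, Mmp8, Mmp9 and Retnlg, out of 11407 genes in the expression tables. The list was set by gene name and not by a cutoff on level, but with earlier results of these data known. It was read in the 6 clusters, 1, 2, 3, 4, 7 and 14, whose cells the authors classed almost throughout as neutrophils. The cells came from mouse mammary tumours that had received either an IL-12 plasmid or a control plasmid by intratumoral injection followed by electroporation. Live CD45+ cells, the leukocytes of the tumour, were sorted, the 3 mice of a treatment were combined, and 1 expression library built from the 5′ ends of transcripts stands for each treatment. The labels differ on the tumour, giving HER2 induced in mammary tissue of mice at 1 month of age, the name 4T1 in the tables, and triple-negative tumours in the design text. The age at sorting and the mouse strain are not given in the sources used here.

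Neutrophils store antimicrobial and matrix-degrading proteins in granules that are filled one kind after another while the cell matures in the bone marrow, an order worked out mainly in human marrow. Proteins of the specific granules are transcribed in myelocytes and metamyelocytes, gelatinase granules are filled later, and transcription of the early genes has largely ceased when the cell enters the blood. The balance of early and late granule transcripts is therefore used as a reading of neutrophil maturity. The early set comprised Ngp, a granule protein of the cystatin family in mouse, Camp, the precursor of the cathelicidin antimicrobial peptide, Ltf, the iron-binding lactoferrin, Lcn2, the siderophore-binding lipocalin, Cd177, a membrane glycoprotein of granules and cell surface, and Chil1, a chitinase-like lectin. The late set was taken by time of transcription, from the band stage after the metamyelocyte on, and not by kind of granule. It comprised Mmp8, neutrophil collagenase, Mmp9, gelatinase B, and Retnlg, a resistin-like secreted protein.

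All 9 genes are protein-coding in GENCODE M21 on the mm10 build, and no annotated gene overlaps them. Camp, Ngp and Ltf are neighbours on chromosome 9, with 570130 bases between Camp and Ngp and 596259 bases between Ngp and Ltf. Mmp8 lies on the same chromosome, 102278894 bases from Camp. Lcn2 and Mmp9 are on chromosome 2, Cd177 on chromosome 7, Chil1 on chromosome 1 and Retnlg on chromosome 16. RefSeq promoter entries on GRCm38.p6, from 250 bases before to 50 bases after the gene start, were at hand for 8 of the 9 genes, all but Mmp9.

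The promoters below are shown because these 5 genes marked the contrast described further on, with Ngp, Camp and Ltf as the early genes concentrated in 1 cluster and Mmp8 and Retnlg as late genes. Capitals mark matches to TTGCNNAA, or TTNNGCAA on the other strand, a spacing typical of sites of C/EBP factors, which include the granulocyte factor C/EBPε. Ngp lies on the + strand at chr9:110419558-110419857, Camp on the − strand at chr9:109849407-109849706, Ltf on the + strand at chr9:111019042-111019341, Mmp8 on the + strand at chr9:7558179-7558478 and Retnlg on the + strand at chr16:48872358-48872657. Each sequence runs 5′ to 3′ along its gene.
Ngp: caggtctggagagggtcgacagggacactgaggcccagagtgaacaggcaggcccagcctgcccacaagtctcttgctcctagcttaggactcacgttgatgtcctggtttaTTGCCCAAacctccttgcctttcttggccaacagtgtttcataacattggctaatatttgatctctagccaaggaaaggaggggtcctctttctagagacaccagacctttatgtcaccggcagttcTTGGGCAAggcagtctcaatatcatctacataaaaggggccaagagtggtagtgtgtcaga
Camp: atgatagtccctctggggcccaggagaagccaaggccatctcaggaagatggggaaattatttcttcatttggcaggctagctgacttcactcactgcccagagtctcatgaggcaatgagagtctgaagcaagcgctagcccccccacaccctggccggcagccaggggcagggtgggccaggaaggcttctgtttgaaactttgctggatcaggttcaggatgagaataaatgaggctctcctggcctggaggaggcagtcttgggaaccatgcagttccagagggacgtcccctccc
Ltf: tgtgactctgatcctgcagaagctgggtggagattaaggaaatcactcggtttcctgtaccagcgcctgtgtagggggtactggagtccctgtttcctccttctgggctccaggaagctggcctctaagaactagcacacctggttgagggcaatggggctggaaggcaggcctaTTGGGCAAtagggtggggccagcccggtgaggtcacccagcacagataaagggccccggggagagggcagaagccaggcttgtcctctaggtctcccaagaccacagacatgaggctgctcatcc
Mmp8: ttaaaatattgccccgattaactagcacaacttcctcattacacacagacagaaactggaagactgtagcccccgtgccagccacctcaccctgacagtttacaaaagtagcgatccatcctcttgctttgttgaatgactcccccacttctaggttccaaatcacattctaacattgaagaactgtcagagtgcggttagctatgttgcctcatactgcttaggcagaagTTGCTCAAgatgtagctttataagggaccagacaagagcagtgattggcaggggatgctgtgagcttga
Retnlg: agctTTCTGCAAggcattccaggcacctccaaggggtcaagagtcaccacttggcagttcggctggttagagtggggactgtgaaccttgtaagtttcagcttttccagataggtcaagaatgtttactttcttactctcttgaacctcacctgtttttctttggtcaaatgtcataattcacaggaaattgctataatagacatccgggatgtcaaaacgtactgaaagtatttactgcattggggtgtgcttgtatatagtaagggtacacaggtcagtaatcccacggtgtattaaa

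Ngp held 2 matches, starting at −138 and −11 from the RefSeq start, and Ltf held 1 at −75, Lcn2 1 at −216, Mmp8 1 at −19 and Retnlg 1 at −246. Camp, Cd177 and Chil1 held none of these letters in the window. Of 32851 mouse promoters of the same length, 10.8% held at least 1 match and 0.773% held 2 or more. The PU.1 core GAGGAAGT, or ACTTCCTC on the other strand, was found among the 8 promoters in Mmp8 alone, at −221, and in 3.20% of all promoters. Matches occurred in both early and late genes, and they are a description of letters and not of bound sites.

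The neutrophil clusters held 5924 of 12979 cells (45.6%) in the IL-12 library and 2715 of 4232 cells (64.2%) in the control library, with median depths of 2555 and 2528 unique molecular identifiers (UMIs, counted transcripts) per cell. The summed level of 7 neutrophil markers was 23408 to 296977 UMIs per 1000000 over the 6 clusters in the IL-12 library and 66488 to 255123 in the control library, and all 7 were present in every cluster. Clusters differed in size between libraries. Cluster 1 held 165 IL-12 and 1263 control cells, cluster 2 held 1914 and 427, cluster 3 held 2606 and 27, cluster 4 held 26 and 552, and cluster 7 held 1096 and 254. Cluster 14 was small in both, with 117 IL-12 and 192 control cells, or 1.98% and 7.07% of neutrophil cells. The libraries shared 87 cell barcodes, 50 of them among neutrophils. The authors' clusters were drawn on expression in these cells, so differences between clusters are given as a description. Since each treatment is 1 library of pooled mice, no test between treatments exists, and all intervals below are exact 95% intervals that cover counting error only.

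Levels are summed UMIs of a gene per 1000000 UMIs of the cells (CPM). UMIs from transcript ends count molecules and are not divided by length, so levels are set side by side for 1 gene across cells and libraries and not between genes. Over all 6 clusters together, 5 of the 9 genes were at least 1.5-fold lower in IL-12 neutrophils and 1, Camp, was at least 1.5-fold higher. Among 8644 genes with at least 20 UMIs, 30.6% were lower and 10.2% were higher by that size, and the median log2 ratio of all genes was −0.25. The median log2 ratio was −0.19 over the 6 early genes and −1.69 over the 3 late genes.

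Retnlg, which marks neutrophils late in marrow maturation, had 1504 CPM in IL-12 neutrophils and 4843 CPM in control neutrophils, 3.22-fold lower with IL-12 (interval 3.17 to 3.27). Mmp8 had 98.3 CPM in IL-12 and 441.4 CPM in control neutrophils, 4.49-fold lower (4.25 to 4.75). Mmp9 had 233.3 CPM in IL-12 and 679.3 CPM in control neutrophils, 2.91-fold lower (2.80 to 3.03). All 3 late genes were thus lower in the IL-12 library by more than counting error. Their sum was 1835 CPM in IL-12 and 5964 CPM in control cells, 3.25-fold lower.

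The early genes differed among themselves. Lcn2 had 1391 CPM in IL-12 and 2832 CPM in control neutrophils, and Cd177 had 105.1 CPM in IL-12 and 333.5 CPM in control neutrophils, 2.04-fold and 3.17-fold lower. Camp had 476.6 CPM in IL-12 and 193.7 CPM in control neutrophils, 2.46-fold higher (2.34 to 2.59). Ngp, Ltf and Chil1 stayed inside 1.5-fold when all neutrophils were pooled. Ngp had 1516 CPM in IL-12 and 1793 CPM in control cells, Ltf had 295.0 and 240.4 CPM, and Chil1 had 391.9 and 429.2 CPM. The sum of the early set was 4175 CPM in IL-12 and 5821 CPM in control cells, a log2 ratio of −0.48. It turned to 0.78 when IL-12 clusters were weighted by the cell shares of the control clusters. This weighting raised the share of cluster 14 from 1.98% to 7.07%. It also raised cluster 4, with 26 IL-12 cells, from 0.439% to 20.3%. The early sum was 44563 CPM in the 117 IL-12 cells of cluster 14 and 1068 CPM in the 26 of cluster 4. The weighted early sum thus rests mainly on the few IL-12 cells of cluster 14. The early share of the UMIs of all 9 genes was 69.5% (69.2 to 69.7) in IL-12 and 49.4% (49.1 to 49.7) in control neutrophils, a difference of 20.07 percentage points. Retnlg gave 28424 of 34693 late UMIs in IL-12 and 41706 of 51357 in control neutrophils. Ngp and Lcn2 gave 28660 and 26295 of 78937 early UMIs in IL-12, and 15436 and 24387 of 50129 in control neutrophils. The share thus rests mainly on these 3 genes. Taking away cluster 14 reduced this difference to 4.64 points, with early shares of 53.2% in IL-12 and 48.6% in control cells.

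Cluster 14 held most transcripts of Ngp, Camp and Ltf. Of the neutrophil UMIs of Ngp it held 93.4% in the IL-12 library and 67.5% in the control library, of those of Camp 96.5% and 80.2%, and of those of Ltf 88.2% and 61.7%. The same cluster held 59.9% and 39.1% of Cd177 UMIs, 44.9% and 35.9% of Lcn2 UMIs, and 40.2% and 49.95% of Retnlg UMIs in IL-12 and control neutrophils. It held 33.6% and 32.3% of Mmp8 UMIs, 13.2% and 16.1% of Mmp9 UMIs, and 5.91% and 10.96% of Chil1 UMIs. Pooled levels of Ngp, Camp and Ltf therefore describe few cells. The 15 IL-12 cells with the most Ngp UMIs held at least 50% of all Ngp UMIs of IL-12 neutrophils, and 24 cells did so in the control library. For Camp 9 IL-12 and 5 control cells sufficed, whereas for Chil1 590 and 296 cells were needed.

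**Figure D1:**
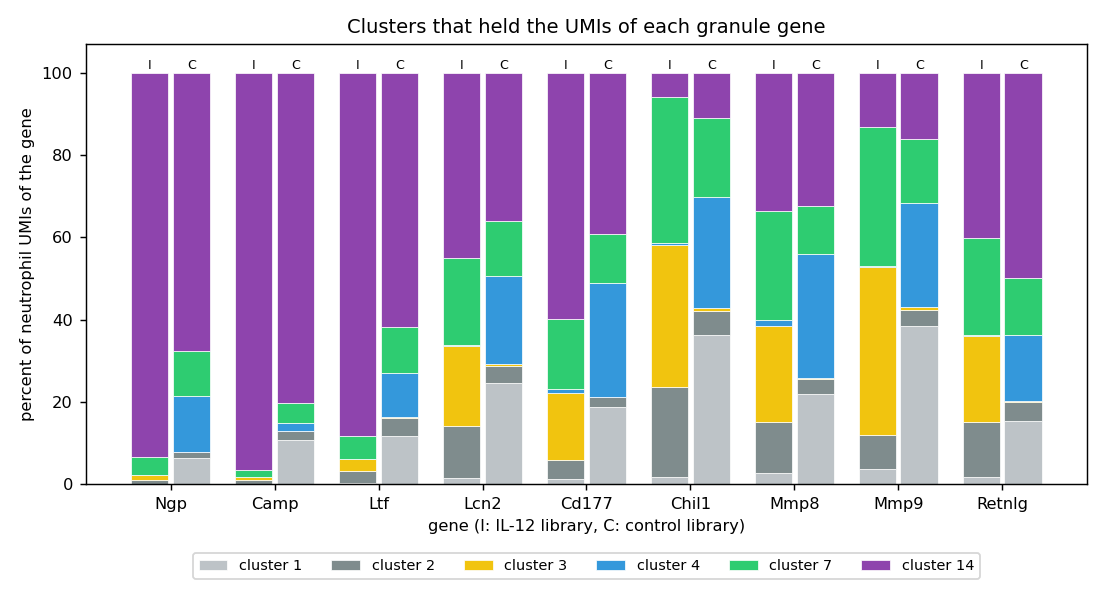
Percent of each gene's neutrophil UMIs (vertical axis) held by each of the authors' 6 neutrophil clusters, with the IL-12 bar (I) left of the control bar (C) for each of the 9 genes. Cluster 14, at the top of each bar, held 96.5% of Camp UMIs in IL-12 and 80.2% in control neutrophils, against 5.91% and 10.96% of Chil1 UMIs.

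Within cluster 14 the early and late genes stood on opposite sides. Ngp had 22171 CPM in IL-12 and 8071 CPM in control cells of cluster 14, 2.75-fold higher with IL-12 (2.69 to 2.81). Camp had 7198 CPM in IL-12 and 1036 CPM in control cells, 6.95-fold higher (6.56 to 7.36), and Ltf had 4071 CPM in IL-12 and 989.1 CPM in control cells, 4.12-fold higher (3.87 to 4.38). Lcn2 had 9776 and 6784 CPM, Cd177 984.5 and 869.8 CPM, and Chil1 362.7 and 313.7 CPM in IL-12 and control cells, all 3 less than 1.5-fold apart with intervals above 1. The late genes were lower in IL-12 cells of the cluster. Retnlg had 9458 CPM in IL-12 and 16135 CPM in control cells, 1.71-fold lower. Mmp8 had 516.7 CPM in IL-12 and 951.1 CPM in control cells, 1.84-fold lower, and Mmp9 had 480.3 CPM in IL-12 and 730.4 CPM in control cells, 1.52-fold lower. Thus 3 of 9 genes were at least 1.5-fold higher and 3 of 9 at least 1.5-fold lower, where 14.7% and 31.2% of 3783 genes measured in cluster 14 were. The count of lower genes was therefore near the share of all genes. The early share was 81.0% in IL-12 and 50.4% in control cells of the cluster. Cells of cluster 14 had a median of 9334 UMIs in the IL-12 library and 6066 in the control library, a difference whose part in these levels was not tested beyond the thinned counts below.

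In the neutrophils outside cluster 14, all 9 genes were lower in the IL-12 library, 8 of them by at least 1.5-fold, where 33.7% of 8544 genes were lower and 9.20% higher by that size and the median log2 ratio of all genes was −0.31. Ngp had 106.5 CPM in IL-12 and 685.1 CPM in control cells, 6.44-fold lower (6.10 to 6.79), Cd177 had 45.0 and 238.9 CPM, 5.30-fold lower, and Mmp8 had 69.7 and 351.5 CPM, 5.04-fold lower. Lcn2 was 2.61-fold lower at 818.7 CPM in IL-12 and 2135 CPM in control cells. Mmp9 was 3.10-fold lower at 216.5 and 670.3 CPM, and Retnlg 2.97-fold lower at 960.7 and 2852 CPM. Chil1, with 393.8 CPM in IL-12 and 449.6 CPM in control cells, was the 1 gene inside 1.5-fold. Camp, with 318 IL-12 and 330 control UMIs outside cluster 14, rested on few cells, since 5 IL-12 cells and 20 control cells in which Ngp made up at least 1% of UMIs held 108 and 287 of them. Without these cells Camp had 11.9 CPM in IL-12 and 6.002 CPM in control cells, 1.98-fold higher (1.42 to 2.82), so its direction outside cluster 14 turned. Ngp was then 3.79-fold lower (3.52 to 4.08) at 68.1 and 258.2 CPM, and Ltf 1.47-fold lower (1.27 to 1.69) at 30.0 and 44.1 CPM, which left 6 of 9 genes at least 1.5-fold lower. T cell clusters 8 and 9, taken below as a background for free RNA, had 9.28 CPM of Camp in IL-12 and 3.13 CPM in control cells. With T cell cluster 5 added, the Camp background was 4.71 and 3.00 CPM. The part of free RNA in the turn of Camp was not tested. Counting all cells, Ngp, Camp and Ltf lay on opposite sides of the control in cluster 14 and outside it. For Ngp and Ltf this held without the Ngp-rich cells outside cluster 14, for Camp it did not, and the difference between clusters was not tested. The 1.5-fold rule called the same 8 genes lower in clusters 1, 2 and 7, the clusters with at least 50 cells in both libraries besides cluster 14, although Ngp-rich cells held 88.4%, 73.5% and 89.0% of the control Camp UMIs of these 3 clusters. Of all genes, 23.2% were lower and 19.0% higher by that size in cluster 1, 39.9% and 9.99% in cluster 2, and 32.9% and 10.4% in cluster 7. Chil1 was 1.28-fold lower in cluster 1, 1.25-fold higher in cluster 2 and 1.09-fold lower in cluster 7.

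**Figure D2:**
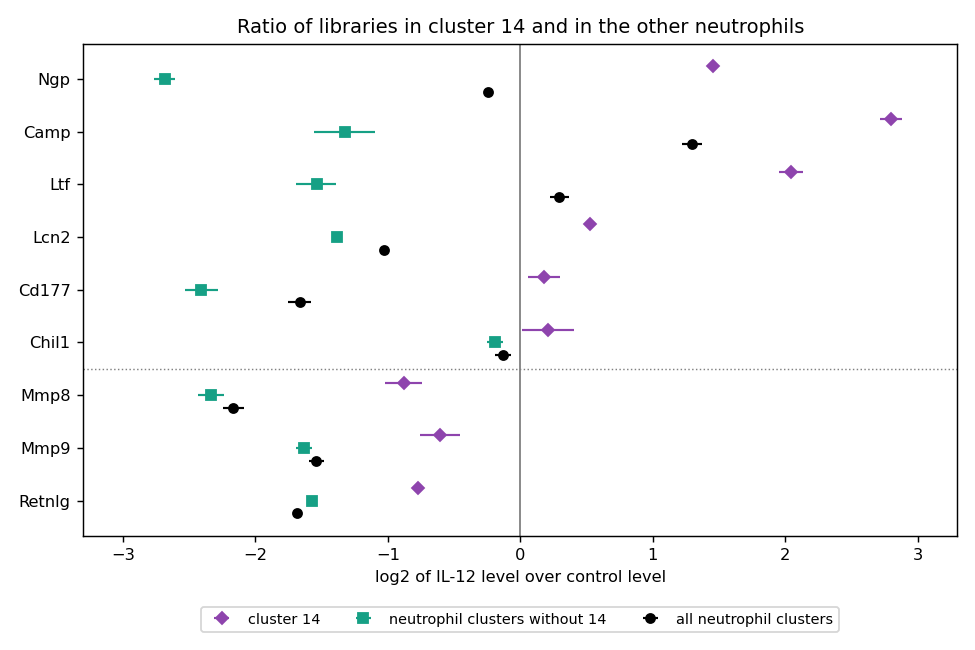
Log2 of the IL-12 level over the control level (horizontal axis) of each gene in cluster 14 (diamonds), in the neutrophils outside it (squares) and in all neutrophil clusters (circles), with exact 95% intervals for counting error and the early set above the dotted line. Ngp, Camp and Ltf lie right of 0 in cluster 14 and left of 0 outside it, while the 3 late genes lie left of 0 throughout. Without 5 IL-12 and 20 control Ngp-rich cells Camp turns to higher outside cluster 14. Its levels are then 11.9 CPM in IL-12 and 6.002 CPM in control cells, beside 9.28 and 3.13 CPM in T cell clusters 8 and 9.

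The order of levels over clusters and libraries differed between genes. Ngp ranked highest in cluster 14 of the IL-12 library and next in cluster 14 of the control library, followed by control cluster 4 with 1173 CPM and control cluster 7 with 1090 CPM, whose intervals overlapped. Control clusters 1 and 2 came next with 313.7 and 303.1 CPM, also overlapping, then IL-12 cluster 7 with 198.7 CPM. IL-12 clusters 1, 2 and 3 followed with 75.7, 58.5 and 51.7 CPM, whose neighbours in the order could not be told apart. Ltf had the same first places, and its control clusters 7, 4 and 2 had overlapping intervals at 151.4, 123.5 and 122.6 CPM. IL-12 cluster 7 had 50.2 CPM of Ltf and the other IL-12 clusters outside 14 had at most 37.5 CPM. Camp had the steepest order, with 57.7 and 52.6 CPM in control clusters 1 and 7, whose intervals overlapped, as the first levels outside cluster 14. Control clusters 2 and 4 had 44.8 and 18.4 CPM, and IL-12 clusters 1, 2, 3 and 7 had 9.77 to 25.9 CPM. Ngp-rich cells, 2 in control cluster 1 and 5 in control cluster 7, held 88.4% and 89.0% of the Camp UMIs of these clusters. Its order outside cluster 14 is therefore not read as a trait of the clusters.

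Lcn2 and Cd177 kept appreciable levels in the other clusters. Lcn2 ran in the IL-12 library at 930.8, 758.6, 790.5 and 888.4 CPM in clusters 1, 2, 3 and 7, and in the control library at 1922, 1327 and 2101 CPM in clusters 1, 2 and 7 and 2928 CPM in cluster 4. Every IL-12 cluster outside 14, cluster 4 with 26 cells and 472.5 CPM included, lay below every control cluster of at least 50 cells. Cd177 had 63.5, 20.3, 50.5 and 53.2 CPM in IL-12 clusters 1, 2, 3 and 7, and 171.2, 96.2, 442.5 and 221.9 CPM in control clusters 1, 2, 4 and 7, so that these IL-12 levels lay below these control levels, although the intervals of IL-12 cluster 1 and control cluster 2 overlapped. IL-12 cluster 4, with 26 cells, had 189.0 CPM of Cd177, above control clusters 1 and 2. Of the 9 genes only Cd177 shares stretches of 60 bases with other annotated genes, over 4.75% of its transcript sequence, so its counts carry a small uncertainty.

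Chil1 was the flattest member. Its levels lay between 332.3 and 418.5 CPM in IL-12 clusters 1, 2, 3, 7 and 14 and between 291.2 and 553.1 CPM in control clusters 1, 2, 4, 7 and 14. Cluster 14, first for the other early genes, had ranks 7 in the IL-12 library and 10 in the control library for Chil1 among 12 units. Pearson correlations of Chil1 with the other 8 members over the 10 units of at least 50 cells ran from −0.28 with Camp to 0.31 with Mmp9. Ngp correlated with Lcn2 at 0.98, with Ltf at 0.97 and with Retnlg at 0.96 over the same units, which share libraries and depth, as a description only.

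The late genes did not share 1 order. Retnlg and Mmp8 were highest in control cluster 14, at 16135 and 951.1 CPM. Retnlg was next in IL-12 cluster 14 with 9458 CPM, followed by control clusters 4, 7, 2 and 1 with 3754, 3669, 2499 and 2058 CPM, of which clusters 4 and 7 had overlapping intervals. IL-12 clusters 1, 7, 3 and 2 came below these, with 1163, 1062, 924.6 and 862.7 CPM of Retnlg. Mmp8 had 642.5 CPM in control cluster 4, above the 516.7 CPM of IL-12 cluster 14. Mmp9 was highest in control cluster 4 with 829.1 CPM, ahead of control clusters 14 and 1 with 730.4 and 719.3 CPM, whose intervals overlapped. In the IL-12 library Mmp9 had 480.3 CPM in cluster 14, 388.4 in cluster 1, 278.8 in cluster 3, 236.5 in cluster 7 and 83.4 in cluster 2.

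**Figure D3:**
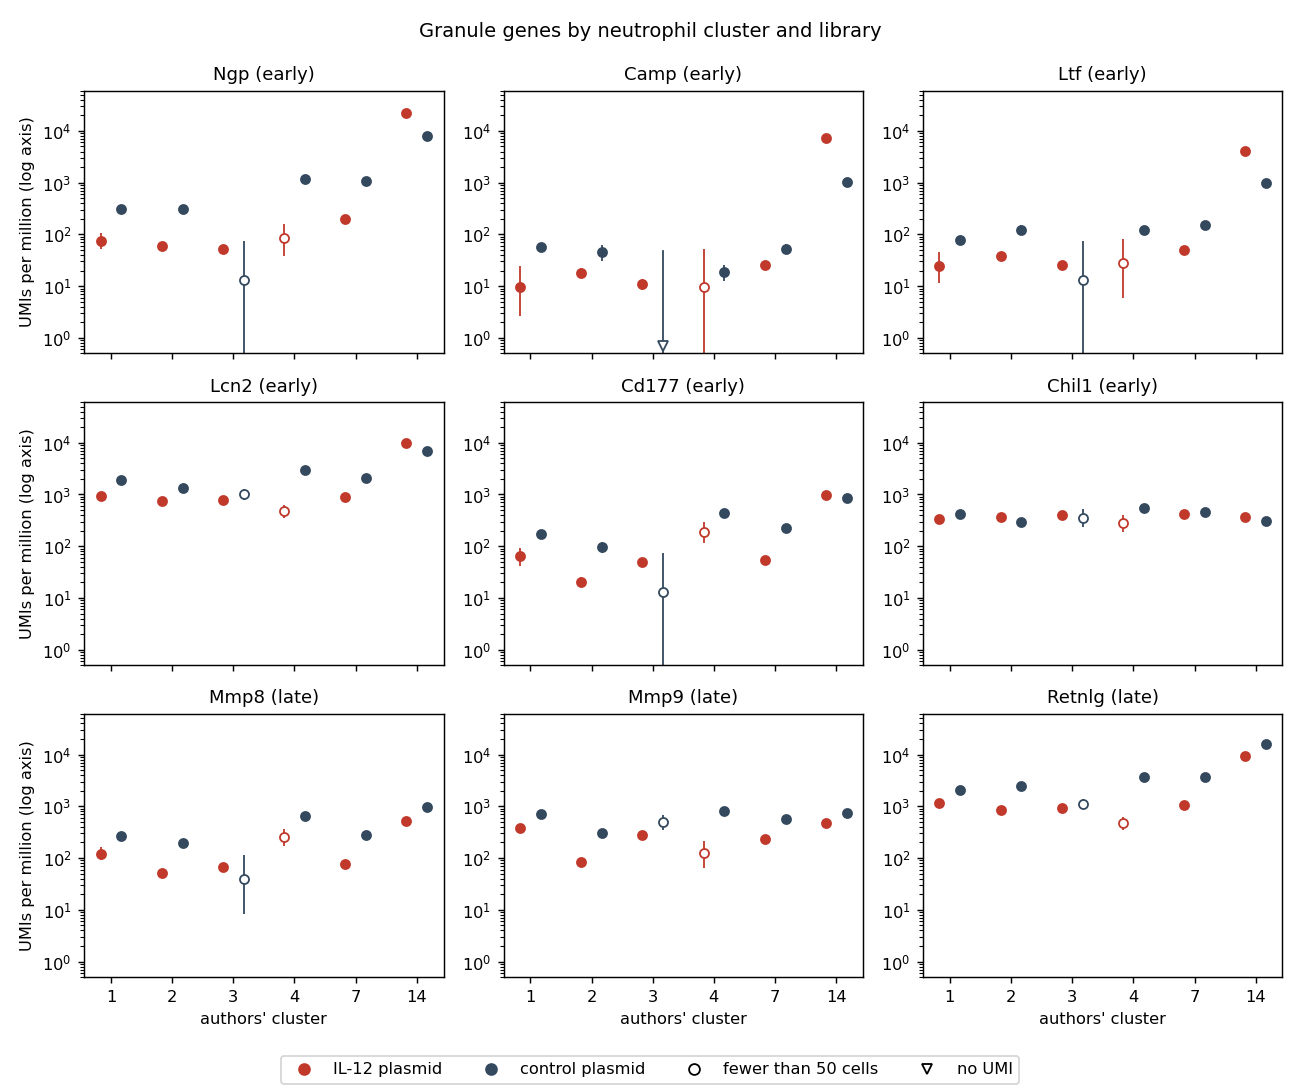
Levels of the 9 genes in UMIs per 1000000 (vertical, log axis) in each of the authors' neutrophil clusters (horizontal axis), IL-12 in red left of control in dark blue, with exact 95% Poisson intervals drawn down to the axis limit and open symbols for groups of fewer than 50 cells or no UMI. Ngp, Camp and Ltf peak in cluster 14 and are higher there in IL-12 cells, whereas Chil1 lies between 291.2 and 553.1 CPM in all filled points.

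Free RNA gives UMIs of these genes in cells that do not make them, so T cell clusters 5, 8 and 9 were taken as a background, with median depths of 4988 UMIs in IL-12 and 4776 UMIs in control cells. Their Ngp level was 12.6 CPM in IL-12 and 21.5 CPM in control T cells, and their Retnlg level 6.48 and 72.8 CPM. The control level includes the 21 control cells of cluster 5, which carried 25120 CPM of neutrophil markers and 39 of the 86 Ngp UMIs. Clusters 8 and 9 alone had 26.1 CPM of Ngp in IL-12 and 12.2 CPM in control cells, and 15.8 and 58.4 CPM of Retnlg. To compare shares of cells at 1 depth, each cell was thinned to 1000 UMIs, which left out 183 IL-12 and 110 control neutrophils that were shallower. Camp was then seen in 1.14% of IL-12 and 0.912% of control neutrophils outside cluster 14, against 0.710% and 0.649% of T cells, and against 1.26% and 0.667% in T cell clusters 8 and 9 alone, so that the share of cells with Camp outside cluster 14 was near background in both libraries. This share was not lower in IL-12 cells although the Camp level was, and no order is read from it. Unthinned, Camp was seen in 3.01% of IL-12 and 1.82% of control neutrophils outside cluster 14. Ngp was seen in 3.98% of IL-12 and 8.83% of control neutrophils outside cluster 14 after thinning, against 1.59% and 1.04% of T cells, and unthinned in 8.75% and 15.3%. Retnlg stood at 19.2% and 42.0% of these neutrophils, against 0.994% of IL-12 and 8.18% of control T cells, and unthinned at 29.0% and 55.5%. In cluster 14 the thinned shares were 38.5% in IL-12 and 15.1% in control cells for Camp, 35.9% and 20.3% for Ltf, and 73.5% and 64.6% for Ngp. With the level of T cell clusters 5, 8 and 9 of each library subtracted, the log2 ratio of the late sum over all neutrophils was −1.69 (−1.70 without subtraction) and that of the early sum −0.47 (−0.48).

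Cells of cluster 14 were then read 1 by 1, thinned to 1000 UMIs. The median cell had 14 early and 9 late UMIs in the IL-12 library and 8 early and 15 late UMIs in the control library. The highest cell had 203 early UMIs in the IL-12 library and 80 in the control library. Early UMIs exceeded late UMIs in 65 of 117 IL-12 cells (55.6%) and in 55 of 192 control cells (28.6%). At full depth Retnlg gave 11422 of 12626 late UMIs in IL-12 and 20832 of 23003 in control cells of the cluster. The count is therefore read between libraries and not as a comparison of genes. A group of 14 IL-12 cells (11.97%) had at least 100 early UMIs per 1000, against 0 of 192 control cells, a count that allows a share of up to 1.56%. At full depth the Ngp level of single cells had a median of 5250 CPM, with quartiles of 575.7 and 27493, in IL-12 cells and a median of 1660 CPM, with quartiles of 159.6 and 7434, in control cells. The median cell had 82.6 CPM of Camp in the IL-12 library and 0 in the control library.

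**Figure D4:**
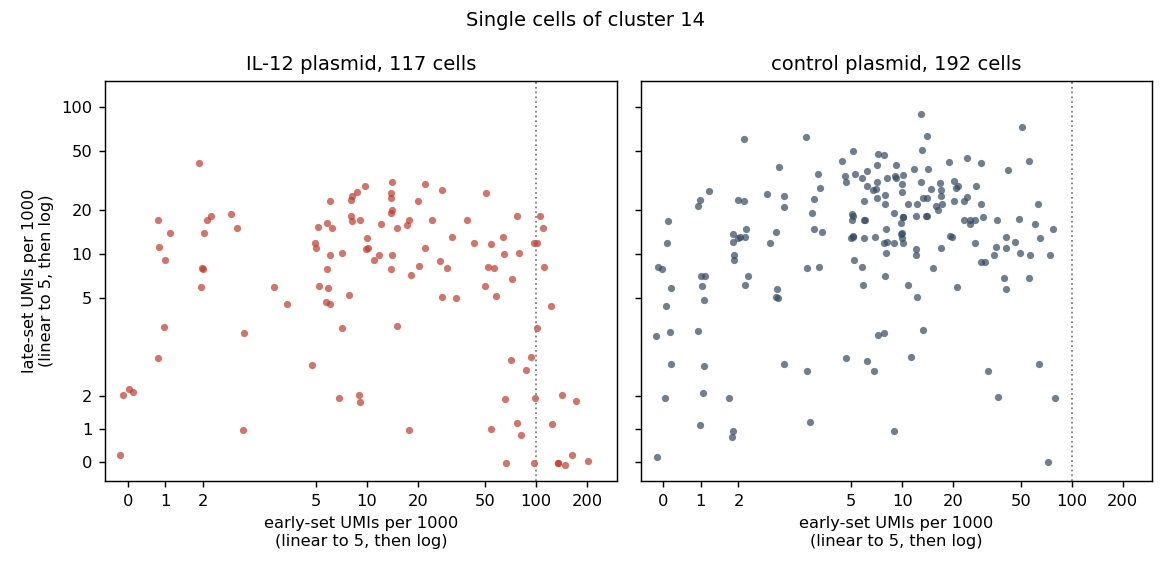
Each point is 1 cell of cluster 14 thinned to 1000 UMIs, with early-set UMIs on the horizontal axis and late-set UMIs on the vertical axis, both linear to 5 and logarithmic above and jittered by less than 1 UMI, IL-12 on the left and control on the right. Right of the dotted line at 100 early UMIs lie 14 IL-12 cells and no control cell, and the median late count is 9 in IL-12 and 15 in control cells.

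From 5 early UMIs upwards, cells of cluster 14 with more early transcripts had lower levels of Retnlg and Mmp8 in both libraries. Under 5 early UMIs both genes were also lower than at 5 to 24. Retnlg had 10084 CPM in IL-12 and 11355 CPM in control cells there, and Mmp8 428.3 and 757.0 CPM. Over all cells of the cluster, Spearman's rho of early and late UMIs was −0.21 in IL-12 and 0.21 in control cells. With 5 to 24 early UMIs per 1000, 50 IL-12 cells had 12887 CPM of Retnlg and 814.2 CPM of Mmp8. With 25 to 99 early UMIs, 30 IL-12 cells had 7182 CPM of Retnlg and 400.5 CPM of Mmp8, and in the thin group of 14 cells with 100 or more the levels were 5562 and 141.2 CPM. Ngp stood at 64759 CPM and Camp at 27582 CPM in those 14 cells. From 5 to 24 to 25 to 99 early UMIs, control cells fell from 20089 to 13475 CPM of Retnlg. Their Mmp8 fell from 1157 to 761.7 CPM. Mmp9 changed little between these ranges, from 549.4 to 539.2 CPM in IL-12 and from 797.2 to 819.2 CPM in control cells. In the 14 IL-12 cells Mmp9 had 238.7 CPM. In each range of early counts held by both libraries, the late set was lower in IL-12 cells. The ranges are wide, so early counts were not matched within them. With 25 to 99 early UMIs, Ngp stood at 29800 CPM in IL-12 and 23147 CPM in control cells of cluster 14. Of the early genes only Cd177 was lower in these IL-12 cells, at 1353 against 1417 CPM. The part of this in the late difference was not tested. With 25 to 99 early UMIs the thinned late level was 8233 CPM (7238 to 9327) in 30 IL-12 cells and 16029 CPM (14729 to 17412) in 35 control cells. With 5 to 24 early UMIs it was 13440 CPM (12443 to 14496) in IL-12 and 22490 CPM (21561 to 23449) in control cells, and below 5 it was 9870 CPM (8627 to 11240) and 13068 CPM (12162 to 14024). Outside cluster 14, with under 5 early UMIs, it was 826.4 CPM (802.1 to 851.2) in 5304 IL-12 cells and 2434 CPM (2366 to 2504) in 1991 control cells.

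Camp and Ltf, antimicrobial products of the specific granules, were often seen in the same cells of cluster 14. After thinning, 40 of 117 IL-12 and 24 of 192 control cells held both, and Spearman's rho over those cells was 0.91 in the IL-12 and 0.70 in the control library. Ngp and Camp had a rho of 0.84 in IL-12 and 0.58 in control cells, and Ngp and Lcn2 0.74 and 0.62. Chil1 had a rho between −0.05 and 0.03 with the other 5 early genes in IL-12 cells and between −0.09 and 0.05 in control cells. These values describe cells that share a library and thinned depth.

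Ngp made up at least 1% of a cell's UMIs in 50 of 117 IL-12 cells of cluster 14 (42.7%, 33.6 to 52.2) and in 39 of 192 control cells (20.3%, 14.9 to 26.7). Those cells held 99.4% of Camp UMIs and 98.9% of Ltf UMIs of the cluster in the IL-12 library, and 97.3% and 94.5% in the control library. In the other neutrophil clusters such cells numbered 5 in the IL-12 library, all in cluster 7, and 20 in the control library, in clusters 1, 2, 4 and 7. The 2 control cells in cluster 1 held 64.9% of that cluster's Ngp UMIs and 88.4% of its Camp UMIs, and the 5 in control cluster 7 held 69.0% and 89.0%. Without all cells at or over 1% the log2 ratio of Ngp over the neutrophil clusters was −1.82, that of Camp 0.51 and that of the late sum −1.77.

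T cell markers were low in the Ngp-rich cells of cluster 14. The 50 IL-12 cells had 87.1 CPM summed over 5 T cell markers, against 72.0 CPM in all IL-12 cells of cluster 14 and 5275 CPM in T cell cluster 5, and 338743 CPM of neutrophil markers. At least 1 T cell marker UMI was present in 29 of the 50 IL-12 and 8 of the 39 control cells. All 4 B cell and all 5 dendritic cell markers were at 0 in IL-12 cells of cluster 14. The 3 monocyte markers summed to 370.1 CPM in IL-12 and 56.5 CPM in control cells of the cluster, and the 6 macrophage markers to 161.5 and 100.7 CPM, and their part in the results for cluster 14 was not tested. The median depth of the Ngp-rich cells was 12987 UMIs in IL-12 and 9077 UMIs in control cells, and doublets were not called.

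Outside the neutrophil clusters, cluster 12, which the authors classed mostly as CD8 T cells, also carried early transcripts in the IL-12 library. It held 6724 Ngp UMIs, 18.7% of those of the whole IL-12 library, and 142 Ngp UMIs, 0.899%, in the control library. Of its 706 IL-12 cells, 8 held 90.2% of its Ngp UMIs, 96.6% of its Camp UMIs and 92.2% of its Ltf UMIs. These 8 cells had 233137 CPM of neutrophil markers and 997.0 CPM of T cell markers, against 38973 and 3029 CPM over the IL-12 cells of the cluster, a median of 15037 UMIs, and a T cell marker UMI in 7 of 8. They carry markers of both types and were left out of the neutrophil values. With cluster 12 counted among neutrophils the late sum had a log2 ratio of −1.88 and the early sum −0.57. Lcn2 was also present in cluster 13, a B cell cluster, at 366.9 CPM in IL-12 and 116.9 CPM in control cells, seen unthinned in 20.2% and 12.6% of cells.

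Other genes of granulopoiesis were read from lists of known markers. The azurophil list holds genes of the promyelocyte stage, before the specific granules, and also Hp, haptoglobin, which is stored in specific granules and made later. Of its 7 genes 3 had enough UMIs in cluster 14, Hp, Serpinb1a and Prtn3. All 3 were at least 1.5-fold higher in IL-12 cells, with a median log2 ratio of 1.16 beside −0.23 for all genes, of which 14.7% were higher and 31.2% lower. Hp had 1255 CPM in IL-12 and 783.8 CPM in control cells of cluster 14, Serpinb1a, an inhibitor of granule serine proteases, 237.6 and 106.1 CPM. Prtn3, proteinase 3, had 17 IL-12 and 3 control UMIs, a ratio of 6.06 (1.75 to 32.3) once scaled. Ms4a3, a gene of granulocyte progenitors, had 10 UMIs in 5 of 117 IL-12 cells and 0 UMIs in 192 control cells, which allows a share of up to 1.56% of cells with a UMI. Mpo and Elane, the main azurophil enzymes, had no UMI in cluster 14 of either library. Over all neutrophils 0 of 3 genes of the list were higher and 2 were lower, beside 10.2% and 30.6% of all genes.

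Of 16 other granule genes measured in cluster 14, Hp again among them, 10 were at least 1.5-fold higher, 3 lower and 3 in between, with a median log2 ratio of 0.72, beside 14.7% higher and 31.2% lower of all genes in the cluster. Wfdc21, an acute-phase protease inhibitor family member, was in between at 3586 CPM in IL-12 and 5182 CPM in control cells. Pglyrp1, a bacterial peptidoglycan-binding protein, was higher at 4317 CPM in IL-12 and 2412 CPM in control cells, Cyba, a subunit of the NADPH oxidase, at 1671 and 1056 CPM, and Slpi, a leukocyte protease inhibitor, at 685.6 and 371.8 CPM. Picked after their values were seen, Lyz2, lysozyme, had 2464 CPM in IL-12 and 480.2 CPM in control cells, while Adam8, a membrane metalloproteinase, had 391.7 and 1084 CPM and Itgam, the CD11b integrin chain, 144.1 and 357.1 CPM. Over all neutrophils 3 of the 16 were higher, 6 lower and 7 in between, beside 10.2% higher and 30.6% lower of all genes.

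Of 12 genes of mature neutrophils 2 were higher, 3 lower and 7 in between in cluster 14, with a median log2 ratio of −0.05, shares near the 14.7% higher and 31.2% lower of all genes. Cd14, Mxd1 and Hdc were in between, and Il1r2, a decoy receptor for interleukin-1, had 656.6 CPM in IL-12 and 1051 CPM in control cells. Among 6 measured granulocyte transcription factors 3 were higher and 3 in between, and Cebpb, Spi1 and Klf6 were in between. Cebpe, required for specific granule genes in mouse and named after its values were seen, had 42 UMIs in 17 of 117 IL-12 cells (14.5%, 8.70 to 22.2) and 3 UMIs in 3 of 192 control cells (1.56%, 0.323 to 4.50), a ratio of levels of 15.0 (4.78 to 75.5). Proliferation genes were sparse, with 2 of 9 measurable, 1 of them higher. Mki67 had 16 UMIs in 11 IL-12 cells and 6 UMIs in 6 control cells of cluster 14. Of the tumour neutrophil list, 2 of 7 measured genes were higher, 2 lower and 3 in between in cluster 14. Over all neutrophils 5 of its 9 genes were higher, 2 lower and 2 in between, beside 10.2% higher and 30.6% lower of all genes. Ccl4, among the higher, had 8341 CPM in IL-12 and 2746 CPM in control cells.

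Genes whose level followed the early set most closely over the 10 units were Serpinb1a with a Pearson r of 0.98, G6pdx, the first enzyme of the pentose phosphate pathway, with 0.98, Zdhhc3, a palmitoyltransferase, with 0.98, Anxa1, annexin A1, with 0.97 and Plp2 with 0.97, out of 4557 genes ranked. Without the 2 cluster 14 units they had 0.85 to 0.95 over 8 units. Cluster 14 held 82.7% of Serpinb1a UMIs in IL-12 and 65.9% in control neutrophils. Those most like the late set were Flot2 and Anxa11, both with 0.99, Flna, the actin cross-linker filamin A, with 0.99, Ggt1 with 0.99 and Glipr2 with 0.98. Without cluster 14 these had 0.94 to 0.99. The units share libraries and depth, and the correlations are a description.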

How the data were processed

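Single cells were sequenced in 1 expression library per treatment. T cell receptor libraries were not used. Per the submitters' processing notes, the authors used Cell Ranger 2.1.0, STAR 2.6.1, Partek (the sources used here give no version) and the mm10 build. The authors deposited log2 values per cell, which their scale shows to be log2 of UMIs per 1000000 plus 1, with the authors' clusters and classes. Whole UMI numbers were recovered from the step of each cell's values. At a tolerance of 0.1 UMI, 13 of 13883686 values in the IL-12 library and 6 of 4251108 in the control library were not whole. A cell's total was 1000000 divided by its step, and the 11407 genes of the tables held 70.4% of IL-12 and 72.9% of control UMIs. Cells had 766 to 19603 UMIs in the IL-12 library and 655 to 19573 in the control library, and no cell was filtered.

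UMIs were summed per cluster and library and divided by the cells' total UMIs. Log2 ratios are IL-12 over control with a pseudocount of 1 CPM. Genes with at least 20 UMIs over both libraries were counted as at least 1.5-fold apart or not. Exact Poisson, binomial and conditional intervals cover counting error only, and the limit for a count of 0 is 3 counts. Thinning drew 1000 UMIs per cell without replacement. Likeness was Pearson's r of log2 (CPM + 1) over cluster and library units of at least 50 cells, among genes with at least 200 UMIs. The genes named are the 9 members, the 5 genes most like each set, up to 4 genes per list with the most UMIs, and those said to be picked after their values were seen or counted at 0 or in few UMIs. The members and lists were chosen with earlier results of these data known. No doublet caller was run. Sums, folds and thinning were tested on simulated data. Python 3.11.15, NumPy 2.4.6, SciPy 1.17.1, pandas 2.3.3 and Matplotlib 3.10.9 were used. Alternatives changed the total, the centring, the weight of cells and clusters, depth, the pseudocount and which cells were counted.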

Additional observations from a re-analysis of the deposited data

Results flagged for a closer look

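Counting all cells, the 6 early genes had log2 ratios of IL-12 over control on opposite sides of 0 in cluster 14 and in the other neutrophil clusters together. Ngp had 1.46 in cluster 14 and −2.68 in the other neutrophil clusters, Camp 2.79 and −1.28, and Ltf 2.04 and −1.51. Outside cluster 14 the Camp value rested on 5 IL-12 and 20 control Ngp-rich cells, and without them it was 0.88, so that Camp was then higher in IL-12 cells on both sides. Its levels outside cluster 14 were then 11.9 CPM in IL-12 and 6.002 CPM in control cells. T cell clusters 8 and 9 had 9.28 and 3.13 CPM, and the part of free RNA was not tested. Lcn2 had 0.53 in cluster 14 and −1.38 elsewhere, Cd177 0.18 and −2.38, and Chil1 0.21 and −0.19. The median of all genes was −0.23 in cluster 14 and −0.31 elsewhere. Chil1 lay above that median on both sides and stayed inside 1.5-fold. With 1 library per treatment the difference between the clusters was not tested. The 3 late genes were lower in IL-12 cells on both sides.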

How the results depend on the processing

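The log2 ratio of the early sum, −0.48 over all neutrophils, was negative under every alternative run but one. With control cluster shares given to both libraries it was 0.78. It was −0.50 over table genes alone, −0.23 after centring on the median gene, −0.92 with equal weight per cell and −0.90 after thinning. Without clusters 1, 2, 3, 4, 7 or 14 it was −0.82, −0.28, −0.052, −0.51, −0.19 and −1.37. Without cells carrying another type's markers (3133 IL-12 and 1260 control cells) it was −0.86, without the 1% of cells with most granule UMIs −1.51, and with the level of the authors' T cell classes, which take in most of cluster 12, subtracted −0.66. The late sum, −1.70, kept its sign, with −1.72, −1.45, −1.80, −1.86 and −0.93 for table genes, centring, equal weight, thinning and control cluster shares. Without the same clusters in turn it was −2.05, −1.58, −1.50, −1.74, −1.61 and −1.63, and −1.83, −1.87 and −1.78 for the last 3 choices. The early share difference of 20.07 points was 15.1 with equal weight, 16.3 thinned and 26.8 with control cluster shares. It was 21.1, 23.3, 22.8 and 4.64 without clusters 2, 3, 7 and 14, and 16.4, 6.19 and 18.5 for the last 3 choices. The 5 genes counted lower became 3 with control cluster shares, 8 without cluster 14 and 8 without the top 1% of cells. Alternatives chosen after seeing the data were subtracting the level of T cell clusters 5, 8 and 9 (early −0.47, late −1.69, share 19.97), counting cluster 12 (−0.57, −1.88, 21.4) and leaving out the 55 IL-12 and 59 control cells with at least 1% Ngp (−1.18, −1.77, 10.2). Outside cluster 14, leaving those cells out turned Camp to 0.88 and gave Ngp −1.91 and Ltf −0.54. Signs turned for Ngp with centring (0.0072), control cluster shares (1.34) and without cluster 2 (0.019), 3 (0.33) or 7 (0.16). They turned for Camp without cluster 14 (−1.28) or the top 1% (−1.26), and for Chil1 with centring (0.12). They turned for Ltf with equal weight (−0.30), thinning (−0.26), and without cluster 1 (−0.15), cluster 14 (−1.51), cells with other markers (−0.045), the top 1% (−1.50) or Ngp-rich cells (−0.56). The cause of these shifts was not tested. No paired analysis was possible because each treatment has 1 library. Animals were pooled, so spread between mice is unknown, and at these depths Camp and Ltf outside cluster 14 rest on few UMIs.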
